A study of Homo sapiens with 21 samples.

Results

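The aryl hydrocarbon receptor and 5 genes tied to it were followed in BJ cells, a line of human skin fibroblasts with a limited replicative lifespan. The 6 genes were chosen by name from the 61544 genes of the deposited table: AHR, its partner ARNT, its repressor AHRR, and the target genes CYP1A1, CYP1B1 and TIPARP. The molecule label reads genomic DNA, but the protocol describes poly(A)-selected RNA and the table counts reads per gene, and the data were treated as RNA. There were 7 groups of 3 libraries, made from untreated cells at 5 passages (P3, P11, P24, P30, then P33) and from P11 cells given DOX (doxorubicin, per the series title) at 50 ng/ml or DMSO, the solvent. All groups are of the one BJ line with no genotype difference named, and no label used here gives the length of the drug exposure. Whether replicates came from separate cultures is not stated, and a p-value therefore reflects only how far these libraries spread, which may be technical.

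AHR is a transcription factor of the bHLH-PAS family that waits in the cytosol, bound to the chaperone HSP90, until a ligand such as dioxin, a polycyclic hydrocarbon or a tryptophan metabolite binds it. It then enters the nucleus, pairs with ARNT and binds the xenobiotic response element, whose core is GCGTG. Its targets include the cytochrome P450 enzymes CYP1A1 and CYP1B1, which oxidise many of its ligands, and a pair of genes whose proteins restrain it, AHRR, which competes for ARNT and DNA, and TIPARP, a mono-ADP-ribosyltransferase that modifies AHR. In cultured fibroblasts CYP1B1 is generally the better expressed of the pair of P450 genes.

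The core of the response element was looked for in the 250 bases before each RefSeq transcript start (GRCh38.p14), on both strands. RefSeq windows were matched for 5 of the 6 genes (8 windows in all), and 3 are shown, 1 for each member that is a target and has a window with the core (the first such window), which is in capitals (CACGC is the core on the other strand). They are CYP1A1 on the minus strand of chr15:74725529-74725778, the first TIPARP start on the plus strand of chr3:156674340-156674589, and the first AHRR start on the plus strand of chr5:321464-321713.
CYP1A1 upstream: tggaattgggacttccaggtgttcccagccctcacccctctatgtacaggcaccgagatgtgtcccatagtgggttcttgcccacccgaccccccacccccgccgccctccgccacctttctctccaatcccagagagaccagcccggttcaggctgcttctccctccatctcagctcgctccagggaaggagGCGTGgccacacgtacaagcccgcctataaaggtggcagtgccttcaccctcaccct
TIPARP upstream: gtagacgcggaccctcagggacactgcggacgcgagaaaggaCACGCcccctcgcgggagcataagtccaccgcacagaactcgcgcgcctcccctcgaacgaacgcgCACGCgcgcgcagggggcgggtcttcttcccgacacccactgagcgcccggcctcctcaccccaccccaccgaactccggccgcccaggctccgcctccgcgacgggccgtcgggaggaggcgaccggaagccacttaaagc
AHRR upstream: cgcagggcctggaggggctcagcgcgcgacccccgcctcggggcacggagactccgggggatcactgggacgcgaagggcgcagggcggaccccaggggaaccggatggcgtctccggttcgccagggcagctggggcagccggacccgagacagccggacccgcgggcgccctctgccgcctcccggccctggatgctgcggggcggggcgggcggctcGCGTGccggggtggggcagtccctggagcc
The CYP1A1 window held 1 core, beginning 57 bases before the start. The TIPARP window held 2, at 208 and 142 bases before it, and the AHRR window held 1, at 30 bases. Of these, the AHRR one alone lay within the longer form TNGCGTG. The windows of AHR and ARNT and the other 2 of TIPARP held no core, and the second AHRR window (chr5:322360-322609) held 2. GCGTG was found in 32.2% of all 35116 windows of this length and TNGCGTG in 4.52%, so a match is a description of these letters and not a bound site.

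Library totals ran from 12.946 to 27.194 M counts (M, mega). All 10 fibroblast markers, COL1A1 and PDGFRA among them, were at 1 CPM or more in every library. Of the markers of other skin and blood cells, 5 of 8 for keratinocytes, 4 of 6 for endothelium, 5 of 6 for leukocytes and 4 of 6 for melanocytes were under 1 CPM in every library, and KRT5 had no read. The melanocyte markers that passed 1 CPM, MITF and PMEL, carried a summed list level that moved between groups, with library ranges of 30.2 to 32.5 CPM (P3), 26.4 to 31.5 (P11), 39.7 to 46 (P24), 71.8 to 75.7 CPM in the P30 group and 40.1 to 40.9 CPM in the P33 group. DMSO libraries had 80.8 to 83.3 CPM and DOX libraries 56.1 to 57.5 CPM. The other 4, MLANA, TYR, DCT and SOX10, stayed under 1 CPM, and the part of this list in the results was not tested. CPM is counts per M of scaled library size. In these bulk samples, fewer cells that express a gene and less RNA per cell cannot be told apart.

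How much of each gene was counted differed between the 2 parts of the table, and this limits 2 of the 6 members. Genes that lie wholly inside another gene of their strand number 9429. The 15 passage libraries gave reads to 0 of them, and the 6 libraries of the DOX and DMSO groups to 3950. AHRR (chr5:321714-438291) is one of them: it lies wholly inside the span of PDCD6-AHRR, a readthrough gene, and had 0 reads in the passage libraries against 384 in the others. Its 0 is therefore no measure of its expression, and AHRR is described only for DOX and DMSO. AHR (chr7:16916359-17346152) is overlapped by ENSG00000283321 on the same strand. That gene begins near the end of the first exon of the main AHR transcript, and 10 of the 11 exons, and all but 673 of the 6276 bases, lie inside it (GENCODE 29 exons).

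**Figure D1:**
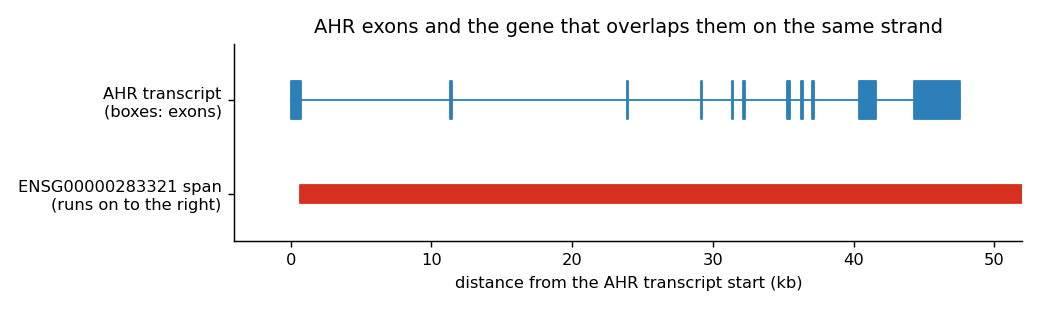
Exons of the main AHR transcript (blue boxes) and the span of ENSG00000283321 on the same strand (red), by distance in kb from the transcript start. The red span begins within the first exon and covers the other 10 of the 11 exons.

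AHR had 2069 reads in the 15 passage libraries and 5214 in the 6 others, and ENSG00000283321 had 50 and 0. AHR is compared below within each part and never across them. Its passage counts can be read only as those of the remainder outside that span. That remainder is 10.7% of the main transcript, but 26.9% of the 7666 exon bases of all AHR transcripts in the GENCODE 29 set. The AHR span also begins far upstream of the main transcript, and which transcripts gave the passage reads was not tested. ARNT (chr1:150809713-150876708), CYP1A1 (chr15:74719542-74725536), CYP1B1 (chr2:38066973-38109902) and TIPARP (chr3:156673235-156706770) have no exon base of the GENCODE 29 set inside another gene of their strand. In the deposited table the CYP1B1 span runs a little further, and its last bases lie inside RMDN2-AS1 of the same strand, which had 20 reads in the passages and 4 in the other libraries. CYP1B1 shares 30.7% of its exon bases with genes of the opposite strand, mainly CYP1B1-AS1, and TIPARP shares 4.82% with TIPARP-AS1. AHR shares 27.4% with genes of the opposite strand. The span of one of these, ENSG00000237773 (chr7:16970320-17299368), covers the 673 bases of the main AHR transcript that lie outside ENSG00000283321.

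Across the passages the receptor's targets did not follow a straight course. CYP1B1 and TIPARP were both at their lowest at P24 and higher again at P30, AHR had its lowest mean at P24 as well, and CYP1A1 was barely read before P30. ARNT went its own way, higher in the middle passages than at either end.

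CYP1B1, the enzyme that hydroxylates estradiol and many polycyclic hydrocarbons, had the widest range of the tested members. It stood at 7.92, 8.32 and 9.22 CPM in the 3 P3 libraries and at 15.8, 11.9 and 14.3 CPM at P11. At P24 it was at 2.22, 2.73 and 2.09 CPM. The P24 libraries were thus below every library of the other passages. Levels then stood at 8.23, 7.36 and 7.36 CPM at P30, and at 16.9, 15.7 and 20.7 CPM at P33. From lowest to highest the order was P24, P30, P3, P11 and P33. P30 and P3 overlapped and were not told apart (log2 difference -0.14, 95% interval -0.40 to 0.12, adjusted p = 0.333), and the P11 and P33 libraries overlapped as well and were not tested against each other.

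From P11 to P24 CYP1B1 fell by 2.58 on the log2 scale (SE 0.139, adjusted p = 5.62e-16), the 27th largest fall of 16821 genes tested. It then rose 3.28-fold from P24 to P30 (log2 1.71, SE 0.157, adjusted p = 1.21e-10), the 124th largest rise, and 2.31-fold from P30 to P33 (log2 1.21, SE 0.109, adjusted p = 5.23e-11). Against P3 it was 1.65-fold higher at P11 and 2.1-fold higher at P33 (adjusted p = 1.06e-06 and 3.7e-11), and at P24 it fell by 1.85 on the log2 scale (adjusted p = 2.69e-12). In all 6 of these differences the libraries of the groups compared did not overlap.

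CYP1A1, the other P450 target and the usual marker of AHR activation, was near silence in early passages. It had 0 reads in each of the 3 P3 libraries. At P11 the counts were 0, 0 and 2 and at P24 0, 2 and 0, both under the 3 reads per group that a count of 0 allows. At P30 there were 8, 5 and 2 reads (0.442, 0.263 and 0.155 CPM) and at P33 there were 9, 16 and 18 (0.379, 0.753 and 0.868 CPM). In CPM every P30 and P33 library was above every earlier one. In reads, P30 replicate 3 had 2, as many as P11 replicate 3 and P24 replicate 2. Against 3 reads over the P3 group, the pooled level of CYP1A1 was 7.2-fold higher at P30 and 15.7-fold higher at P33. These ratios make no allowance for counting error in the 15 reads at P30 and the 43 at P33. CYP1A1 did not pass the filter on low counts. Without that filter it differed from P3 at P30 and P33 (edgeR adjusted p = 2.91e-05 and 1.59e-10, DESeq2 adjusted p = 0.000989 and 2.04e-05), and between P24 and P30 (edgeR adjusted p = 0.0109). P33 and P30 overlapped and did not differ by the test (adjusted p = 0.115).

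TIPARP, also called PARP7, fell and recovered at the same passages as CYP1B1. It was at 83.6, 84.4 and 81.7 CPM at P3 and at 78, 81.2 and 77.6 CPM at P11. The P24 libraries stood apart, at 41.9, 44 and 51.3 CPM. At P30 it was at 88.8, 94.2 and 90 CPM and at P33 at 96.2, 83.9 and 88.2 CPM. From P11 to P24 TIPARP fell by 0.78 on the log2 scale (SE 0.0647, adjusted p = 1.55e-11), and from P24 to P30 it rose 1.98-fold (log2 0.99, SE 0.0647, adjusted p = 4.33e-14). These were the 683rd largest fall and the 533rd largest rise of all genes tested. The other passages lay close together: against P3 the log2 differences at P11, P30 and P33 were -0.08, 0.13 and 0.10, none of which passed (adjusted p = 0.333, 0.0746 and 0.133). The P33 difference passed without P33 replicate 2 (0.17, adjusted p = 0.0322).

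**Figure D2:**
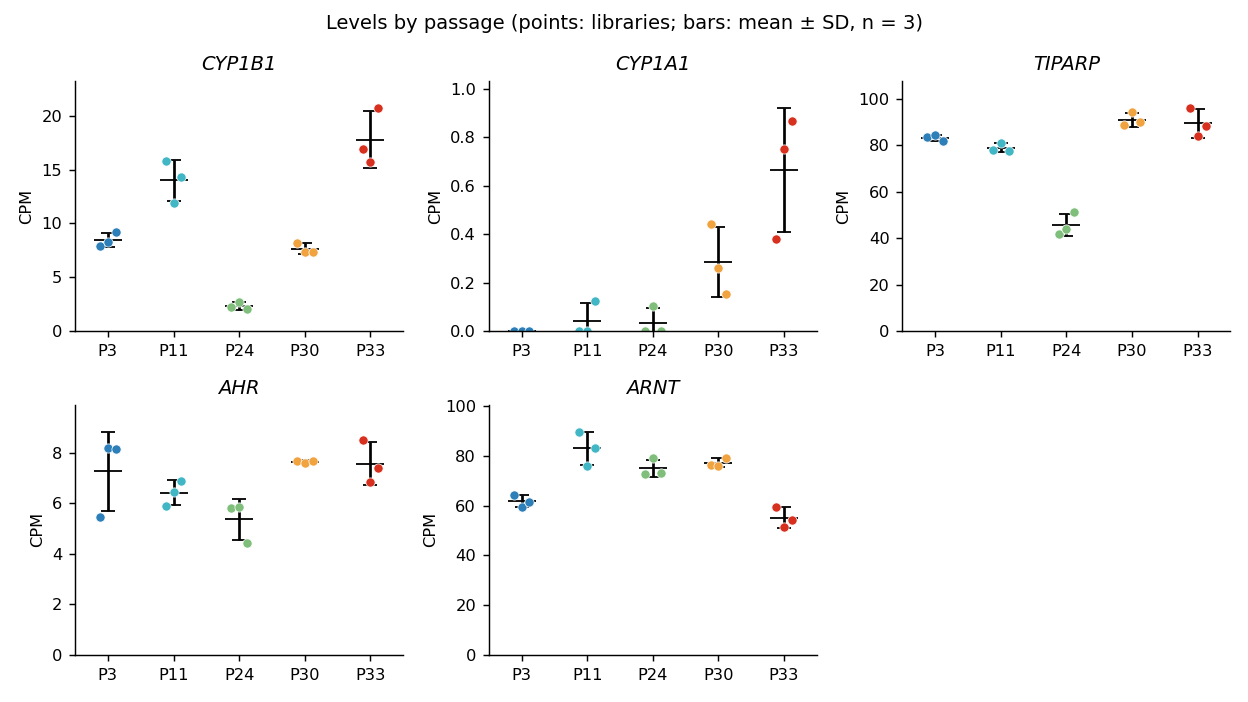
CPM of 5 members by passage, 1 panel per gene; points are the 3 libraries of a passage and bars the mean ± SD. CYP1B1 and TIPARP have their lowest libraries at P24 (2.09 to 2.73 and 41.9 to 51.3 CPM), and CYP1A1 was read in all 3 libraries only at P30 and P33.

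AHR itself moved less than CYP1B1 and TIPARP in the step from P24 to P30. Its P3 libraries were at 5.46, 8.21 and 8.14 CPM, its P11 libraries at 5.9, 6.45 and 6.89 CPM and its P24 libraries at 5.8, 5.84 and 4.44 CPM. P30 was at 7.68, 7.58 and 7.67 CPM and P33 at 8.51, 6.83 and 7.38 CPM. Most groups overlapped, but every P24 library was below every P11, P30 and P33 one. At P24 AHR fell by 0.45 on the log2 scale from P3 (SE 0.132, adjusted p = 0.00474), and that call was lost without P3 replicate 2 (-0.34, adjusted p = 0.0509) or P24 replicate 3 (-0.31, adjusted p = 0.0681). From P24 to P30 it rose 1.44-fold (log2 0.52, SE 0.138, adjusted p = 0.00308), the 1479th largest rise. P11, P30 and P33 did not differ from P3 by the test (log2 -0.18, 0.08 and 0.07, adjusted p = 0.278, 0.636 and 0.637), and without P3 replicate 1, the lowest P3 library, P11 was called lower (-0.36, adjusted p = 0.0139). These values rest on 99 to 213 reads a library, and on the part of the gene outside ENSG00000283321, which includes sequence upstream of the main transcript. There the span of ENSG00000237773 lies on the opposite strand, and reads of the 2 genes may be mixed, as the strand setting was not stated.

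ARNT, the shared partner of AHR and of the hypoxia factors, was higher from P11 to P30 than at P3 and P33. It was at 64.3, 59.5 and 61.4 CPM at P3, at 89.7, 76.1 and 83.4 CPM at P11 and at 72.9, 79 and 73.2 CPM at P24. At P30 it was at 76.5, 76.2 and 79.4 CPM and at P33 at 59.7, 51.6 and 54.3 CPM. The middle 3 passages did not overlap with P3 or with P33. Against P3 ARNT rose by 0.43 on the log2 scale at P11, 0.28 at P24 and 0.32 at P30 (adjusted p = 1.42e-06, 0.000357 and 5.78e-05), and from P30 to P33 it fell by 0.48 on the log2 scale (SE 0.0648, adjusted p = 1.94e-07). P24 and P11 were not told apart (-0.15, adjusted p = 0.0746), though they were without P11 replicate 2 (-0.21, adjusted p = 0.0189) or P24 replicate 2 (-0.18, adjusted p = 0.0463). P33 was called lower than P3 by a small margin (-0.16, SE 0.0642, adjusted p = 0.0279), a call lost under DESeq2 (-0.15, adjusted p = 0.0705) and DESeq2 size factors (-0.14, adjusted p = 0.0519). It was lost as well on leaving out P3 replicate 1 (-0.12, adjusted p = 0.16), replicate 2 of P33 (-0.10, adjusted p = 0.233) or its replicate 3 (-0.13, adjusted p = 0.111).

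Counts of called members are set beside the share of all 16821 genes called, since many genes moved between passages. The 4 members that could be tested in the passages were AHR, ARNT, CYP1B1 and TIPARP. At P11 against P3, 2 of them rose and 0 fell, where 46.5% of all genes were called (22.9% higher, 23.6% lower). At P24, 1 rose and 3 fell (54.4% of all genes called, 26.6% higher and 27.8% lower), and at P30, 1 rose and 0 fell (58.6% called, 29% higher and 29.6% lower). At P33, 1 rose and 1 fell (67.8% called, 34.5% higher and 33.3% lower). From P11 to P24, 0 rose and 2 fell (33.6% called, 16% higher and 17.7% lower). From P24 to P30, 3 rose and 0 fell (35.1% called, 18% higher and 17.1% lower). From P30 to P33, 1 rose and 1 fell (48.4% called, 23.6% higher and 24.8% lower). The median log2 change of the 4 was -0.53 from P11 to P24 and 0.76 from P24 to P30, where the medians over all genes were -0.00094 and 0. The comparisons with P3 share the P3 libraries, and successive steps share the passage between them.

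Over the 15 passage libraries the log2 CPM of CYP1B1 and TIPARP had a Pearson correlation of 0.83, AHR and TIPARP one of 0.69 and AHR and CYP1B1 one of 0.59. ARNT correlated negatively with each, at -0.33 with AHR, -0.32 with CYP1B1 and -0.29 with TIPARP. The 3 libraries of a passage are not independent points in such a correlation, so these are descriptions of 5 passages. Among 13006 other protein-coding genes, those most like CYP1B1 were SQSTM1, the autophagy receptor p62 (0.96), the mitochondrial carrier gene SLC25A34 (0.95) and the repressor NFIL3 (0.95). NFIL3 had means of 44.5, 57.5, 21.1, 38 and 49 CPM from P3 to P33. Those most like TIPARP were RAB33A (0.92), the mannose 6-phosphate receptor IGF2R (0.92) and FAM43A (0.92). PRMT2, an arginine methyltransferase, NUDT3 and PGD were most like ARNT (0.96, 0.94 and 0.94), and PMS2, MAP1LC3B and TMEM129 most like AHR (0.83, 0.80 and 0.79).

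Of the genes that overlap a member, CYP1B1-AS1 and RMDN2 moved between passages too. CYP1B1-AS1, an antisense RNA, runs across CYP1B1 from the opposite strand and was at 0.461 ± 0.24 CPM at P3, 1.29 ± 0.47 at P11, 0.66 ± 0.14 at P24, 1.38 ± 0.30 at P30 and 2.54 ± 0.49 at P33 (SD, n = 3). It fell by 0.95 on the log2 scale from P11 to P24 (adjusted p = 0.0224), rose 2-fold from P24 to P30 (adjusted p = 0.0169) and was 5.34-fold higher at P33 than at P3 (adjusted p = 7.05e-09). The strand setting of the counting was not stated, so reads of CYP1B1 and CYP1B1-AS1 may be mixed, and so may those of AHR and ENSG00000237773. RMDN2, whose end overlaps the end of CYP1B1 from the opposite strand, had 5244 reads over the passages and moved as well. It was at 14.4 ± 0.51 CPM at P3, 13.7 ± 0.26 at P11, 15.8 ± 2.0 at P24, 24.3 ± 1.7 at P30 and 19.9 ± 0.72 at P33, higher than at P3 at P30 (1.68-fold, adjusted p = 4.14e-09) and P33 (1.38-fold, adjusted p = 1.27e-05). With DOX RMDN2 rose by 0.27 on the log2 scale (adjusted p = 0.00929), and CYP1B1-AS1 did not pass (0.61, adjusted p = 0.165). TIPARP-AS1 had 45 reads over the passages. ENSG00000237773, antisense to the upstream part of AHR and to the first exon of its main transcript, had 479. It did not pass at P33 against P3 (log2 0.33, adjusted p = 0.269).

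Doxorubicin, a topoisomerase poison, was compared with DMSO in P11 cells. CYP1B1, TIPARP and AHR were higher with DOX and ARNT was lower. CYP1B1 was at 48.9, 44.3 and 47.5 CPM with DMSO and at 93.6, 102.7 and 94.9 CPM with DOX. The groups were far apart, and the rise was 2.07-fold (log2 1.05, SE 0.0748, adjusted p = 2.43e-13). TIPARP was at 82.7, 84 and 78.7 CPM with DMSO and at 122, 116 and 129 CPM with DOX, 1.5-fold higher (log2 0.58, SE 0.0613, adjusted p = 1.94e-09). No TIPARP library of one group reached the other.

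AHR was at 39.5, 36 and 39.2 CPM with DMSO and at 46.8, 50.9 and 46 CPM with DOX. It rose 1.25-fold (log2 0.32, SE 0.0844, adjusted p = 0.00255), again without overlap. ARNT was at 109.9, 110.7 and 111.1 CPM with DMSO and at 96.2, 87.9 and 102.6 CPM with DOX, and it fell by 0.21 on the log2 scale (SE 0.0618, adjusted p = 0.00704). The DMSO libraries were within 2 CPM of each other and the DOX ones spread wider, and the call was lost without DOX replicate 2, the lowest (-0.16, adjusted p = 0.0543). The repressor AHRR was at 2.79, 4.67 and 3.23 CPM with DMSO and at 3.07, 2.46 and 3.31 CPM with DOX. These overlapped, and no difference was detectable (log2 -0.26, 95% interval -0.72 to 0.21, adjusted p = 0.387). CYP1A1 had 2, 2 and 0 reads with DMSO and 2, 5 and 6 with DOX, too few to tell apart (adjusted p = 0.314 without the count filter).

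**Figure D3:**
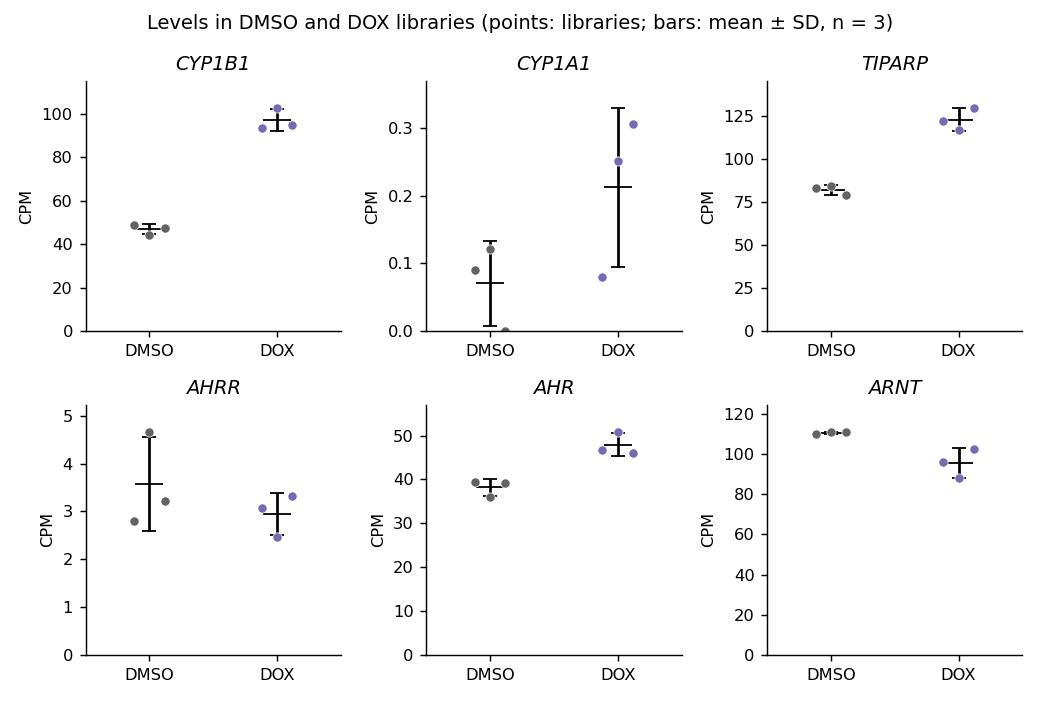
CPM of the 6 members in the 3 DMSO and 3 DOX libraries; points are libraries and bars the mean ± SD. CYP1B1, TIPARP and AHR are higher in every DOX library and ARNT is lower in every one, while AHRR and CYP1A1 overlap.

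Of the 5 members tested with DOX, 3 rose, 1 fell and 1 did not pass, beside 37.3% of all genes called (16.7% higher, 20.6% lower). By size, CYP1B1 had the 900th largest rise of 16821 genes, TIPARP the 1904th and AHR the 3277th. Per kb of exon, and within these 2 groups only, the order with DMSO was ARNT at 22.4 ± 0.13 CPM per kb, TIPARP at 17 ± 0.58, CYP1B1 at 8.55 ± 0.43, AHR at 4.98 ± 0.26, AHRR at 0.567 ± 0.16 and CYP1A1 at 0.0229 ± 0.020 (SD, n = 3). With DOX, TIPARP was first at 25.5 ± 1.4 CPM per kb. ARNT at 19.3 ± 1.5 and CYP1B1 at 17.7 ± 0.90 came next, with libraries that overlapped. In all passages TIPARP and ARNT were far above CYP1B1, which ran from 0.428 ± 0.062 CPM per kb at P24 to 3.24 ± 0.48 at P33.

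The DOX effect and the change from P3 to P33 share no library, and their difference was tested in the same fit. CYP1B1 rose by like amounts in both, 1.05 and 1.07 on the log2 scale, and the difference was -0.02 (95% interval -0.29 to 0.24, adjusted p = 0.94). The baselines were unlike, P11 cells with DMSO and untreated P3 cells. Untreated P11 cells already stood above P3 by 0.72 in CYP1B1, and their libraries overlapped with those of P33. Mean CYP1B1 was 46.9 CPM with DMSO and 14 CPM in untreated P11 cells. This gap lies between the 2 parts, which were counted differently, so it cannot be read as a change in expression, and it was not tested. TIPARP differed: its DOX effect was 0.58 and its P33 effect 0.10, a difference of 0.48 (SE 0.0865, adjusted p = 2.11e-05). ARNT was lower in both, by -0.21 and -0.16, with a difference of -0.05 (95% interval -0.24 to 0.14, adjusted p = 0.691). For AHR the effects were 0.32 and 0.07 and the difference 0.25 (95% interval -0.06 to 0.57, adjusted p = 0.158), or 0.43 (adjusted p = 0.00838) without P3 replicate 1, and the 2 effects rest on different parts of the gene. Of these 4 members 1 differed, beside 51.2% of all genes (25.8% higher, 25.4% lower). CYP1A1, tested without the count filter, differed too (edgeR adjusted p = 0.00823, DESeq2 adjusted p = 0.0204), with 0 reads at P3, 43 at P33, 4 with DMSO and 13 with DOX.

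**Figure D4:**
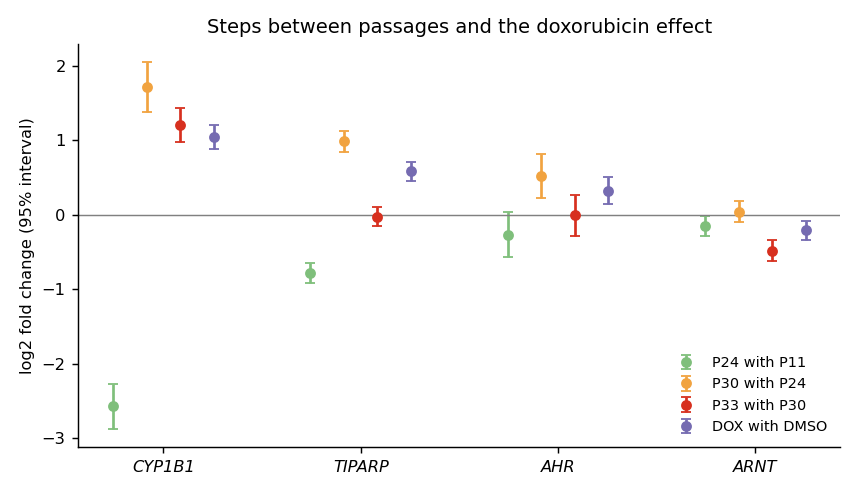
Log2 fold changes of 4 members with 95% intervals, for 3 steps between passages and for DOX with DMSO. CYP1B1 has the widest swings, -2.58 from P11 to P24 and 1.71 from P24 to P30, and TIPARP moves the same way by -0.78 and 0.99.

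Genes that work with the receptor were read from lists, compared at P33 with P3 and with DOX. RNA of the genes of the cytosolic complex that holds AHR was lower at P33, and the proteins were not measured. All 5 genes fell, with a median log2 change of -0.33 against 0 over all genes, of which 67.8% were called (33.3% lower). HSP90AB1 went from 1329 ± 44 to 682 ± 34 CPM and HSP90AA1 from 1595 ± 37 to 1270.4 ± 52 CPM. With DOX 0 of the 5 passed in edgeR's test, 0 had an unadjusted p under 0.05 and DESeq2 called 0, beside 37.3% of all genes called. HSP90AB1 and HSP90AA1 do not overlap a gene on their strand, and without the 2 of the list that do, 3 of 3 fell at P33.

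Other bHLH-PAS factors, the family of AHR and ARNT, moved in both directions. Of 10 tested, 7 rose and 3 fell at P33 (median 0.46), beside 67.8% of all genes called (34.5% higher, 33.3% lower). With DOX 5 rose and 4 fell (median 0.18), beside 37.3% (16.7% higher, 20.6% lower). ARNT2, the close relative of ARNT, fell by 1.92 on the log2 scale at P33, from 80.3 ± 0.79 to 21.2 ± 2.5 CPM, and by 0.80 with DOX, from 99.6 ± 1.3 to 57.2 ± 3.5 CPM, and it overlaps another gene on its strand. NPAS3 rose at P33 from 0.32 ± 0.16 to 4.65 ± 0.53 CPM and with DOX from 0.354 ± 0.11 to 1.1 ± 0.40 CPM. NPAS1 rose 3.87-fold and 3.55-fold. With genes that overlap a same-strand neighbour left out, a choice made after seeing the data, the counts were 3 up and 2 down of 5 at P33 and 4 up and 1 down with DOX. Of 9 coactivators and corepressors 4 rose and 4 fell at P33 (2 and 0 of 3 without overlapping genes), beside 67.8% of all genes called. NCOA7 rose by 0.88 on the log2 scale and NCOA3 by 0.42, and the corepressor NRIP1 fell by 0.53. With DOX 1 rose, NCOA7, by 1.33-fold, and 0 fell, beside 37.3% of all genes called. NCOA7 and NRIP1 overlap another gene on their strand.

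Further target genes did not all follow CYP1B1. Of 7 other drug-metabolising targets only NQO1, the quinone reductase, passed the count filter. It fell by 0.48 on the log2 scale at P33, from 138 ± 7.2 to 99 ± 3.2 CPM, and rose 1.51-fold with DOX, from 159 ± 5.2 to 240 ± 25 CPM. The other 6 had too few reads to be tested. Of 11 other genes known to respond to AHR ligands, 8 rose and 0 fell at P33 (5 and 0 of 7 without overlapping genes), with a median of 0.75, beside 67.8% of all genes called (34.5% higher, 33.3% lower). EREG, the EGF receptor ligand epiregulin, rose 9.41-fold, from 123 ± 3.8 to 1159 ± 127 CPM. IL1B, a cytokine, rose 5.87-fold, and SLC7A5, an amino acid transporter that overlaps another gene, 2.4-fold. With DOX 2 rose and 2 fell (median -0.04), near the shares of all genes (16.7% higher, 20.6% lower). SLC7A5 rose 3.31-fold and IL1B 1.81-fold, while IL24 went from 50 reads to 4, and EREG stood at 108 ± 5 and 95.6 ± 4.7 CPM (adjusted p = 0.177). Whether AHR had a part in these changes was not tested.

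**Figure D5:**
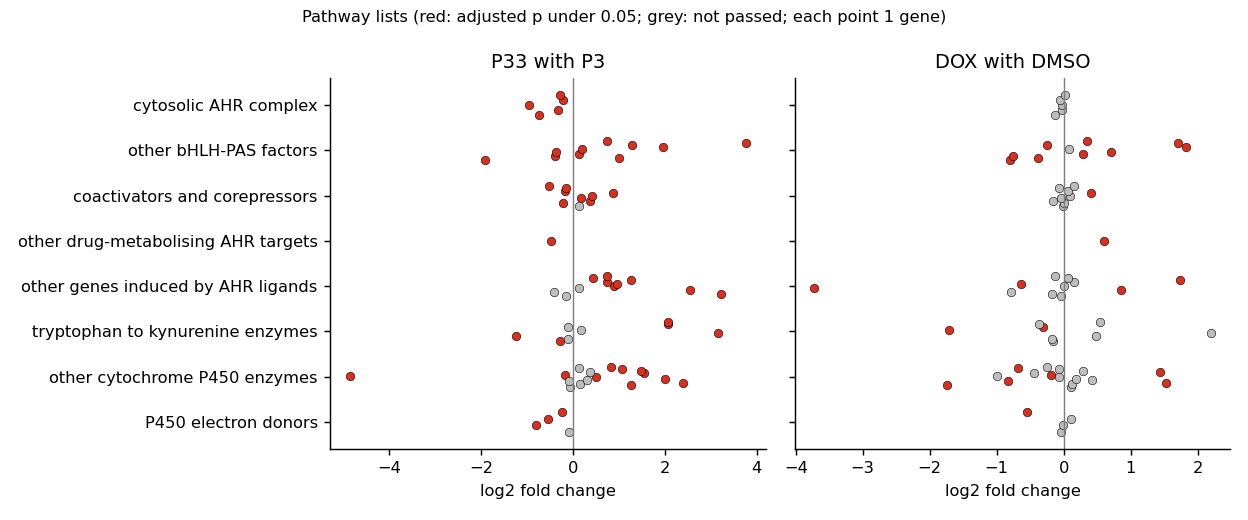
Log2 fold changes of the tested genes of 8 lists, at P33 with P3 (left) and DOX with DMSO (right); each point is a gene, red where the adjusted p was under 0.05. The 5 genes of the cytosolic complex lie below 0 at P33, and 8 of 11 other genes induced by AHR ligands lie above it and passed.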

How the data were processed

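Per the file's column names and values, the authors deposited raw read counts per gene, not normalized, for 21 libraries. The submitters' processing notes say that reads were handled with (no order given) HISAT2 2.1.0, featureCounts 2.0.1 of Subread, cutadapt 3.3, SAMtools 1.11, FastQC 0.11.9 and DESeq2 1.34.0, with builds hg38 and GRCh38.p13. Options, strand setting and annotation release are not given there.

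Genes were kept by filterByExpr (minimum count 10), leaving 16821 of 61544. Libraries were scaled by TMM, and the quasi-likelihood test of edgeR 4.0.16 (R 4.3.3) used 1 fit of all 21 libraries with 7 group means (14 residual degrees of freedom). Tests were two-sided, with Benjamini-Hochberg adjustment over 16821 genes and a threshold of 0.05 in the adjusted p. Levels are CPM on TMM-scaled sizes, and correlations use log2 CPM with a prior count of 2. A floor of 3 reads, summed over a group, covers counting error only. Alternatives were DESeq2 1.42.0, its size factors, no filter (38314 genes), separate fits of the 2 parts, a replicate block and leaving out each library. On simulated counts the fit recovered 80% of 2-fold changes for P33 with P3 (15869 genes) and 86% for DOX with DMSO (15846 genes). Of its calls there, 3.89% and 6.22% were false. The simulation gave every gene the same spread and changed few genes, unlike these data. Exon positions come from GENCODE 29 and promoters from RefSeq. Named are the 6 members, genes that overlap them, the 3 largest called changes of a list (1 gene is not reported here) and the 3 genes most like each member. The members and lists were chosen with earlier results of these data known.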

Additional observations from a re-analysis of the deposited data

How the results depend on the processing

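Each alternative kept the side of the threshold for all changes of CYP1B1, and kept its direction wherever it had passed. Counts of called genes stayed within 1.5-fold throughout. The call of ARNT at P33 against P3 was lost with DESeq2 size factors (-0.14) and DESeq2 (-0.15). Differences near 0 from P30 to P33 changed sign without passing: AHR was at 0.00404 with DESeq2 size factors and 0.0157 with the parts fitted separately, where TIPARP was at 0.000459. Leaving out 1 library each gave these log2 ranges, and the cause of a change was not tested. At P33 against P3, ARNT ran from -0.22 to -0.10, TIPARP from 0.045 to 0.17 and AHR from -0.094 to 0.17. AHR ran from -0.36 to -0.070 at P11, from -0.62 to -0.31 at P24 and from -0.10 to 0.19 at P30, each against P3. From P11 to P24 ARNT ran from -0.21 to -0.087. From P30 to P33 AHR ran from -0.11 to 0.078 and TIPARP from -0.082 to 0.037. With DOX, ARNT ran from -0.27 to -0.16 and AHRR, never called, from -0.42 to -0.013. CYP1B1 at P30 against P3, never called, ran from -0.20 to -0.084. For the DOX effect minus the P33 effect, AHR ran from 0.15 to 0.43, ARNT from -0.11 to 0.013 and CYP1B1 from -0.115 to 0.090. Where 1 library decided a call, it is named beside the result. Same-numbered libraries did not deviate together (correlations of -0.0457 to 0.0345 over 30 passage pairs and -0.0772 to 0.0415 over 3 DOX and DMSO pairs, none over 0.1). No pairing by number was thus detected over all genes tested, though one that is weak or limited to few genes could be missed. With the replicate block no call of a member changed: CYP1B1 with DOX was at 1.05, and 11377 genes were called at P33 against P3 beside 11408. CYP1A1 was tested only without the count filter and by DESeq2, which gave no adjusted p for it at P11 against P3 or in the steps from P11 to P30. Separate fits of the 2 parts give no difference of the DOX and P33 effects, so none was run. Low counts limit CYP1A1 and AHRR, and AHR in the passages.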

Other observations

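Enzymes of tryptophan breakdown, a source of AHR ligands, were at uneven levels, and 8 of 11 listed were tested. At P33 against P3, 3 rose and 2 fell (median log2 change 0.03), beside 67.8% of all genes called. IDO1, which opens the tryptophan ring and overlaps another gene on its strand, rose from 6 reads at P3 to 52 at P33 (0.0775 ± 0.067 to 0.793 ± 0.21 CPM, SD, n = 3). TDO2, which does the same step, rose from 9 reads to 36, and KYNU, which cleaves kynurenine, from 12 to 47. With DOX 0 rose and 2 fell, beside 37.3% of all genes called (16.7% higher, 20.6% lower): IL4I1, an amino acid oxidase, from 1.91 ± 0.25 to 0.566 ± 0.12 CPM, and KYAT3 by 0.31 on the log2 scale. Both overlap another gene on their strand, and without such genes 0 of 5 passed in edgeR's test (lowest adjusted p = 0.297), 0 had an unadjusted p under 0.05 and DESeq2 called 0.

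Among 16 other cytochrome P450 genes tested, 8 rose and 2 fell at P33 (median 0.44) and 2 rose and 4 fell with DOX (median -0.08), beside 67.8% and 37.3% of all genes called. CYP26B1, which breaks down retinoic acid, rose in both comparisons, from 0.465 ± 0.25 to 2.39 ± 0.26 CPM at P33 and from 1.3 ± 0.26 to 3.73 ± 0.75 CPM with DOX. CYP27C1 rose 4.03-fold at P33, from 2.83 ± 0.34 to 11.5 ± 1.8 CPM. CYP2S1 went from 44 reads at P3 to 1 at P33. CYP19A1, the aromatase, which overlaps another gene, fell by 1.74 on the log2 scale with DOX, from 3.94 ± 0.35 to 1.17 ± 0.21 CPM. Of the 4 electron donors of these enzymes 3 fell at P33 and 1 with DOX, beside 33.3% and 20.6% of all genes called lower. Without the 3 that overlap another gene on their strand, 1 was left and 0 fell in either comparison. POR, the P450 reductase, fell in both, by 0.23 and 0.54 on the log2 scale, and also overlaps another gene on its strand.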
